A study of Mus musculus with 5 samples.

Results

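B cells of the atherosclerotic mouse aortic arch were chosen by a gate on the deposited values of single cells. A cell was taken as a B cell when at least 2 of Cd79a, Cd79b and Ms4a1 were above 0, C1qa was at most 2 on the natural log scale of the files, and Cd3e, Cd3g and Cdh5 were at 0. The gate gave 89 B cells of 18260 cells. Apoe-/- replicates 1 and 2 held 29 and 30 of them, and the replicates 1, 2 and 3 labelled Oasl1-/-Apoe-/- held 10, 11 and 9.

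The samples were 5 droplet 3′ RNA libraries of live cells, sorted by exclusion of the dye DAPI, from the aortic arch after removal of the perivascular fat. The 2 control libraries came from Apoe-/- mice (Oasl1+/+), and the 3 others from Oasl1-/-Apoe-/- mice, so that both groups lacked apolipoprotein E, which makes mice prone to atherosclerosis on a normal chow diet, given here for 28 weeks. The Oasl1-/- allele lacks the promoter and exon 2 in all cells of the mouse, so a B cell difference is not one of Oasl1 in B cells alone. Cells were pooled from mice (n = 6), and since nothing states that the libraries of a group came from separate animals, p-values measure the spread between libraries, which may be technical.

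B cells make antibodies and present antigen to T cells. Their antigen receptor is a surface immunoglobulin that signals through the partner chains encoded by Cd79a and Cd79b, while Ms4a1 encodes CD20, a membrane protein of the B lineage. In atherosclerosis they are known from the adventitia and from lymphoid aggregates along the aorta, and B-1 and follicular B cells are held to have different effects on lesions.

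The recovered unique molecular identifiers (UMIs) per library ranged from 16959976 to 19813039, and the table held fewer cells than the study states. Oasl1 was not a check of the labels: its mean in the other Ptprc-positive cells was 0.0894 and 0.0666 UMIs per 10000 UMIs of a cell (CP10K) in the Apoe-/- libraries, against 0.553, 0.496 and 0.515 in those labelled Oasl1-/-Apoe-/-, and a 3′ tag lies outside the deleted part. The latter libraries are therefore named by their label throughout. In the B cells, Oasl1 was listed at 0 in 4 libraries and at 0.276 CP10K in the replicate 2 labelled Oasl1-/-Apoe-/-. There were 165 cell barcodes found in more than 1 library. Among the B cells, 2 had a barcode that occurred in another library, and 0 shared one with another B cell.

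All 89 B cells had a Cd79a UMI. Of them, 36 had all 3 genes, 35 had Cd79a with Ms4a1, and 18 had Cd79a with Cd79b. Just outside the gate were 236 cells with exactly 1 of the 3 genes, in which that gene was Cd79b in 157, Cd79a in 50 and Ms4a1 in 29. These cells had a median of 6025.5 UMIs, and 172 of them had a C1qa UMI and 35 an Igkc UMI. Among the 89 B cells, 88 had an Igkc UMI and 1 a C1qa UMI. A further cell had 2 of the 3 genes but was left out for a Cd3g UMI.

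The B cells were shallow. They held 183068 UMIs in all, with a median of 1564 UMIs and 623 genes per cell (774 to 11020 UMIs). The 2513 other cells with a Ptprc UMI, the leukocyte marker CD45, had a median of 5351 UMIs. Low depth was not particular to B cells, since the 319 Cd3-positive cells among those had a median of 1956 UMIs and 859 genes. A Ptprc UMI was required of the other cells but not of the B cells. Ptprc itself was seen in only 29 of the 89 B cells. Median UMIs per B cell were 1388 and 1424 in the Apoe-/- libraries and 2466, 1598 and 1780 in the libraries labelled Oasl1-/-Apoe-/-. The latter were all higher, at the exact two-sided permutation p of 0.2, where 0.1 is the smallest that 2 against 3 libraries allow. The median mitochondrial share of B cells was 3.81% ± 0.115 (SD, n = 2) and 3.72% ± 0.234 (SD, n = 3).

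Of the markers that the gate did not use, Ly6d and Ighd separated the B cells from the macrophage-like cells more clearly than Cd22 did. Ly6d, a lymphoid surface protein, had a UMI in 76.4% of the B cells (Wilson 95% confidence interval 66.6 to 84.0%) and in 0.0643% of the 1555 C1qa-high cells, the macrophage-like cells with C1qa above 2 and no Cd3 UMI, whose median depth was 6380 UMIs. Ighd, the IgD heavy chain, was seen in 41.6% and 0.129%. Cd22, an inhibitory receptor of B cells, was seen in 15.7% of the B cells and in 9.90% of the deeper C1qa-high cells. Of the 13 T and NK cell genes listed, 12 were at 0 in the B cells of all libraries, Lck being the exception, but the gate itself set Cd3e and Cd3g to 0. Of 14 macrophage and monocyte genes, 4 were at 0 throughout, among them Csf1r and Fcgr1, and the list's summed level was 1.02 to 3.03 CP10K in B cells against 268 to 305 in the other Ptprc-positive cells. That list holds C1qa, which the gate limited, so part of this gap was fixed by the rule. All 5 neutrophil genes were at 0, and so were 5 of 8 dendritic, 3 of 6 fibroblast and 5 of 6 endothelial genes, whose summed levels reached at most 3.15, 1.67 and 0.857 CP10K in a library. Of the endothelial genes, Cdh5 was at 0 by the gate. Intervals cover counting error only.

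B cells were a smaller share of the libraries labelled Oasl1-/-Apoe-/-. They made up 0.711% and 0.692% of all cells in the Apoe-/- libraries, against 0.294%, 0.342% and 0.279%. The groups did not overlap, with means of 0.701% ± 0.0138 (SD, n = 2) and 0.305% ± 0.0333 (SD, n = 3), a ratio of 2.30, at the exact permutation p of 0.1 that is the smallest this design allows. Of cells that had a Ptprc UMI or were B cells, the share was 7.80% and 8.26% against 1.52%, 1.93% and 1.41%. This ratio was larger, at 4.96, and its exact p was also 0.1. B cells entered this denominator without a Ptprc UMI, which raises the level. With a Ptprc UMI required of B cells too, the group means were 2.74% and 0.547%. With Ptprc, Cd52 or Coro1a above 0 in the denominator they were 3.77% and 0.825%. The other Ptprc-positive cells numbered 343 and 333 against 647, 559 and 631, so that the second denominator differed between the groups as well. In the libraries labelled Oasl1-/-Apoe-/-, fewer B cells and more of other cells could not be told apart from shares. The Wilson 95% intervals of single libraries were 0.496 to 1.02% for Apoe-/- replicate 1 and 0.159 to 0.540% for the replicate 1 labelled Oasl1-/-Apoe-/-, which overlapped. For the share of Ptprc-positive or B cells, the intervals of both Apoe-/- libraries (5.48 to 11% and 5.85 to 11.6%) lay above those of the 3 others (0.829 to 2.78%, 1.08 to 3.42% and 0.742 to 2.65%).

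**Figure D1:**
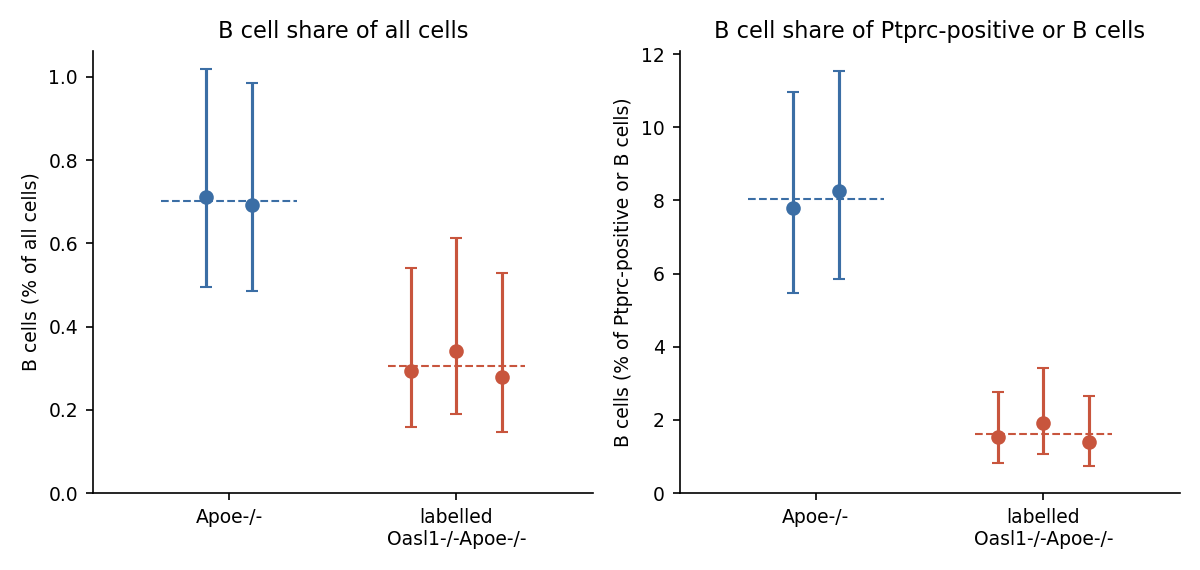
B cells as a percentage of all cells (left) and of cells that had a Ptprc UMI or were B cells (right), 1 point per library with its Wilson 95% interval. Dashed lines are group means. Both Apoe-/- libraries lie above all 3 libraries labelled Oasl1-/-Apoe-/- in each panel.

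Against the other Ptprc-positive cells, B cells differed by genes of the antigen receptor, of antigen presentation and of lymphoid identity. Since the gate made this contrast, the values are given as a description with no test. Among 3046 genes with a mean of at least 0.5 CP10K in either population, 50 (1.64%) were at least 2-fold higher in the B cells of all 5 libraries, and 260 (8.54%) were at least 2-fold lower. Ratios are of means with 0.5 CP10K added to each, which understates those of low genes.

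Cd79a, at chr7:24897381-24902197 on mm10, had means of 26.5, 23.8, 21.4, 18.5 and 21.9 CP10K in the 5 libraries, Apoe-/- first. Ms4a1, at chr19:11249675-11266241, had 7.06, 8.09, 8.99, 7.45 and 9.72. Cd79b, at chr11:106311341-106314762, varied more, with 5.69, 5.72, 10.2, 1.81 and 3.93. These 3 levels were fixed in part by the gate. Of the 18 receptor and coreceptor genes listed, 6 were at least 2-fold higher in the B cells of every library. Cd79a and Cd79b of the gate are among them, and so are Blk, a Src family kinase of B cells, and Fcrla, an intracellular Fc receptor-like protein, which had means of 1.36 and 3.0 CP10K over the libraries. Cd72, an inhibitory coreceptor of B cells, was lower in B cells than in the other Ptprc-positive cells in every library, by a log2 ratio of -0.64 to -2.10. Its level in C1qa-high cells was 12.5 CP10K. Cr2, the complement receptor CD21, was listed at 0 in every cell.

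Immunoglobulin transcripts led the list of B cell genes. Igkc, the kappa constant region at chr6:70726435-70726966, had a lowest log2 ratio of 5.52 and a highest of 8.72 over the libraries. Ighm, the IgM heavy chain, had means of 14.6 and 14.4 CP10K in the Apoe-/- libraries and 24.2, 13.0 and 23.7 in those labelled Oasl1-/-Apoe-/-. Ighd, the IgD heavy chain that marks naive mature B cells, had 4.78 and 6.20 against 3.32, 2.45 and 4.18. Of the 89 cells, 29 had UMIs of both heavy chains, 42 of Ighm only, 8 of Ighd only and 10 of neither. Ighm UMIs were not confined to B cells: they were in 21.6% of C1qa-high cells, at 0.850 CP10K over those cells, while Igkc UMIs were in 0.772%. In UMIs, the C1qa-high cells held 641 of Ighm and 19 of Igkc, whereas the B cells held 290 and 5433. Of the 5433, a single B cell with 0 Ighm UMIs, described below, held 4024. The ratio of these transcripts thus differed between the populations.

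A B cell as a rule displays kappa or lambda light chains and not both. Every one of the 89 B cells had a light chain UMI. Kappa was alone in 20 cells, lambda in 1 cell, and 68 had UMIs of both. Lambda made up over 50% of the light chain UMIs in 8 cells, 4 of 59 in the Apoe-/- libraries and 4 of 30 in those labelled Oasl1-/-Apoe-/-. A further 42 cells had a lambda share of 10 to 50%. Kappa-dominant cells had a median of 13 kappa UMIs, and lambda-dominant cells had medians of 8 lambda and 2.5 kappa UMIs. The 1555 C1qa-high cells and the 319 Cd3-positive cells held 0 lambda UMIs, and 19 and 70 kappa UMIs, in the same libraries. All 2513 other Ptprc-positive cells together held 32 lambda and 239 kappa UMIs, and the 10706 Ptprc-negative cells with Acta2 and Myh11 UMIs held 6 and 480. Iglc2 and Iglc3 are near-identical copies, and the split of their UMIs is uncertain.

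**Figure D2:**
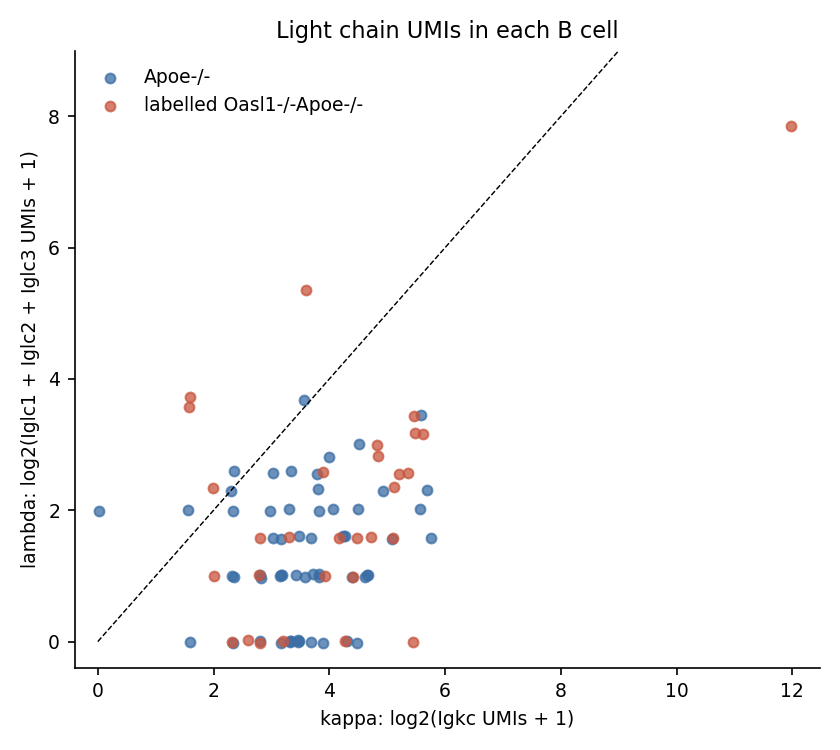
Light chain UMIs of the 89 B cells, 1 point per cell, with kappa (Igkc) on the x axis and the sum of Iglc1, Iglc2 and Iglc3 on the y axis, both as log2(UMIs + 1) with a small jitter; the dashed line marks equal counts. Most cells lie below the line with a few lambda UMIs, 8 have more lambda than kappa, and the point far to the right is the cell with Igha.

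A cell with the genes of antibody secretion was among the B cells. It came from the replicate 2 labelled Oasl1-/-Apoe-/- and held 11020 UMIs, the most of any B cell. It had 4024 kappa UMIs, where the highest among the other B cells was 52. It was the only B cell with UMIs of Igha (953), the IgA heavy chain, and of Jchain (532), which joins secreted IgA and IgM. It had 24 UMIs of Mzb1, a chaperone of immunoglobulin assembly, 0 of Ighm and 0 of Ms4a1. Sdc1, Tnfrsf17 and Derl3, which plasma cells express, were at 0 in the B cells of the other 4 libraries. The Igkc mean of that library, 391 CP10K against 76.1 to 115 in the others, included this cell. Mzb1 was not particular to it: it was seen in 46 of the 89 B cells, with means of 4.13 to 7.81 CP10K over the libraries.

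Of the 14 transcription factors listed, Ebf1, Pou2af1, Klf2 and Mef2c were at least 2-fold higher in the B cells of every library. Ebf1, which sets the B cell program, had means of 14.5, 11, 5.18, 13.7 and 12.3 CP10K. It was not restricted to B cells in this tissue, since 51.3% of the 10706 Ptprc-negative cells with Acta2 and Myh11 UMIs also had it, at 1.54 CP10K. Nor were Klf2 and Mef2c, which 85.9% and 63.0% of the same cells had, at 12.0 and 2.16 CP10K. Pou2af1 was in 0% of them. Pax5, which maintains B cell identity, was seen in 14 of 59 Apoe-/- B cells, and it was listed at 0 in the 3 libraries labelled Oasl1-/-Apoe-/-. Those libraries held 9 to 11 B cells, and a gene found in under 3 cells of a library was mostly set to 0 before deposit, so that such a gene can be at 0 with B cells that have it. Klf2, a factor of quiescent and recirculating lymphocytes, had means of 17.6, 21.4, 33.7, 13.4 and 30.9 CP10K, and Mef2c of 5.86, 9.27, 4.17, 5.24 and 7.81. Pou2af1, a coactivator at immunoglobulin promoters, had 1.45, 1.29, 0.736, 1.02 and 0.624.

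**Figure D3:**
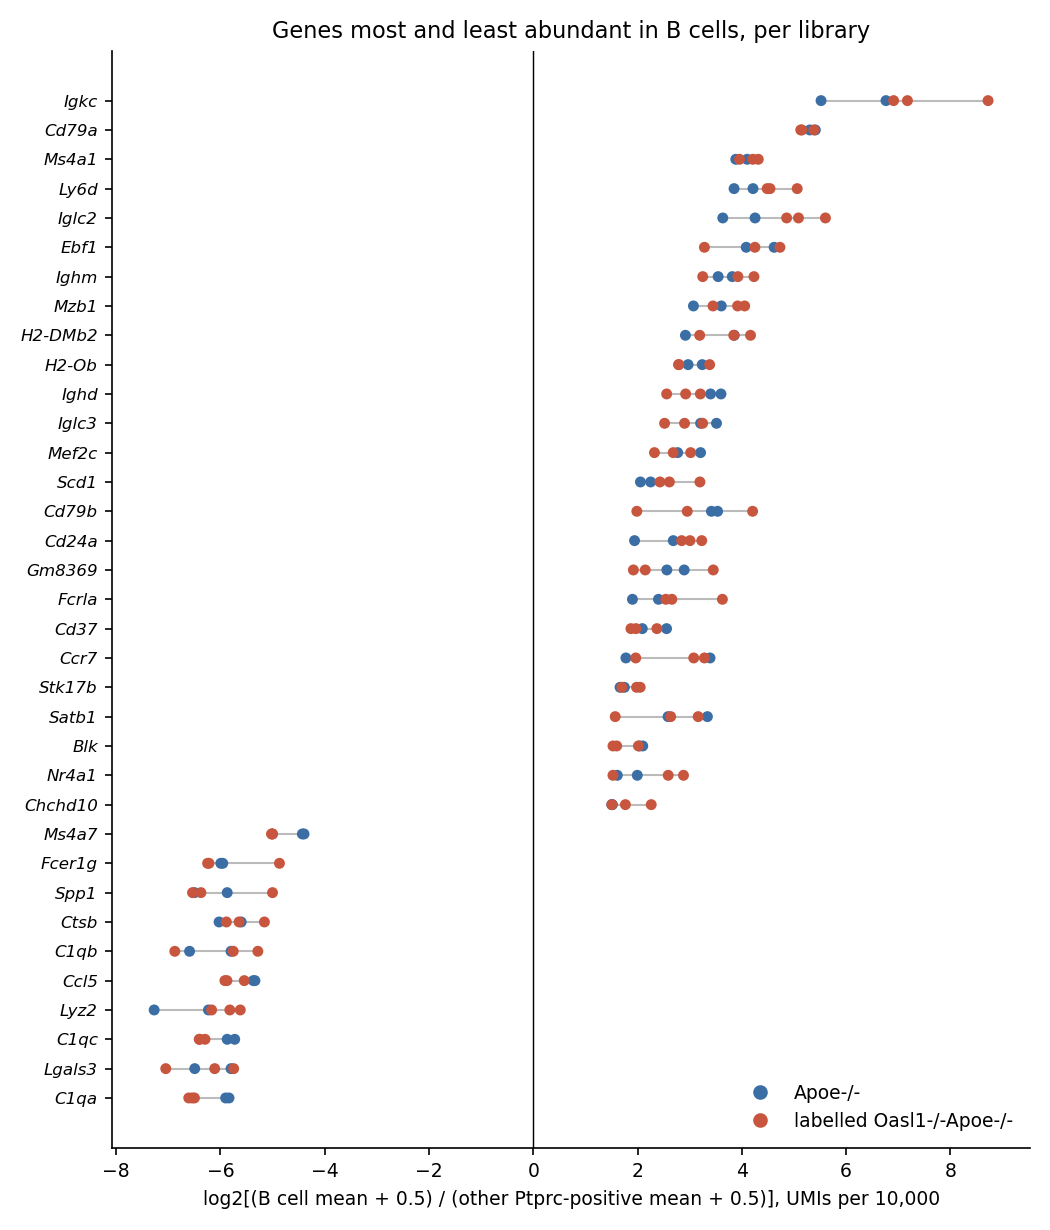
Log2 ratio of the B cell mean to the mean of the other Ptprc-positive cells in each library (5 points per gene, 0.5 CP10K added to each mean), for the 25 genes with the highest lowest ratio and the 10 genes with the lowest highest ratio. Igkc, Cd79a and Ms4a1 lead, and C1qa and Lgals3 are at the other end; the gate used Cd79a, Cd79b, Ms4a1 and C1qa.

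Of the 8 genes of the follicular list in the table, 4 were at least 2-fold higher in the B cells of every library, namely Ighd, Klf2, Cxcr5, the receptor that guides B cells into follicles, with means of 0.866 to 1.76 CP10K, and Cd55, a complement regulator, with 0.757 to 3.60. Fcer2a, the IgE receptor CD23 of follicular B cells, was seen in 17 of 59 B cells of the Apoe-/- libraries. In those labelled Oasl1-/-Apoe-/- it was seen in 1 of 30. As for Pax5, a gene in under 3 cells of a library was mostly set to 0, so B cells with Fcer2a can be missed there. Of the other subset lists, Cd5 and Itgam of B-1 cells, Itgax and Cxcr3 of age-associated B cells, Cd93 of transitional cells, and Mki67, S1pr2 and Gcsam of dividing or germinal centre cells were at 0 in all B cells. For Mki67, 0 of 89 cells allows a share of up to 3.37% of cells with a UMI, taking 3 counts as the limit. Other members of these lists were seen. In the germinal centre list, Fas had UMIs in 2 B cells, and Bcl6 and the dividing-cell gene Top2a in 1 each. In the age-associated list, Zeb2 was seen in 4 B cells, Fcrl5 in 2 and Tbx21 in 1. Cd24a of the transitional list was seen in 57.3% of B cells and was at least 2-fold higher than in the other Ptprc-positive cells of every library. S100a6 and Anxa2 of the B-1 list were in 19.1% and 12.4% of B cells, against 61.9% and 75.8% of C1qa-high cells. Zbtb32 and Bhlhe41, factors of B-1 cells, reached at most 0.658 and 1.65 CP10K in a library. Of the marginal zone list, Cd9 was at least 2-fold lower than in the other Ptprc-positive cells in every library, and S1pr3 and Cd1d1 were at 0 in at least 3 libraries each.

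Of the 12 homing genes above the floor of 0.5 CP10K, Ccr7 and Cxcr5 were at least 2-fold higher and Rgs1 and Selplg at least 2-fold lower than in the other Ptprc-positive cells of every library. Ccr7, the receptor for entry into lymphoid tissue, had means of 9.94, 8.25, 9.43, 4.83 and 12.3 CP10K. Its mean was 0.989 in all other Ptprc-positive cells, 0.102 in C1qa-high cells and 0.367 in Cd3-positive cells. Tnfrsf13c, the receptor for the survival factor BAFF, had 0.720, 0.866, 2.89, 0.775 and 0, and Tnfrsf13b, its relative TACI, 1.26, 0.616, 1.19, 0.165 and 1.06. Levels as low as these rest on few UMIs in a library. Rgs1, a brake on chemokine receptor signals, had 0.180 to 6.35 CP10K in B cells, and Selplg, a selectin ligand, 0 to 0.824. Of the 14 survival and costimulation genes, 0 passed 2-fold in either direction in every library.

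B cells carried the transcripts of antigen presentation on MHC class II at levels whose ranges over libraries overlapped those of the macrophage-like C1qa-high cells. Here H2-Aa, H2-Ab1 and H2-Eb1 encode the peptide-binding chains, Cd74 the invariant chain that guides them, H2-DMa with H2-DMb1 and H2-DMb2 the peptide loader, and H2-Oa with H2-Ob its inhibitor. H2-Aa had means of 91.3 and 93.3 CP10K in the Apoe-/- libraries and 51.8, 101 and 94.1 in those labelled Oasl1-/-Apoe-/-. Over the libraries that was 51.8 to 101, against 47.8 to 77.1 in C1qa-high cells and 0 to 4.72 in Cd3-positive cells. Cd74 had 223 to 305 CP10K in B cells and 130 to 243 in C1qa-high cells, and H2-Ab1 46.6 to 68.7 and 39.4 to 72.9, so these ranges overlapped. Library by library, Apoe-/- first, the summed class II list was 469, 460, 411, 509 and 564 CP10K in B cells. In the other Ptprc-positive cells of the same libraries it was 345, 347, 416, 415 and 452. The B cell sum was the lower only in the replicate 1 labelled Oasl1-/-Apoe-/-.

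H2-DMa and H2-DMb2 of the loader and both genes of the inhibitor separated the B cells from the C1qa-high cells. H2-DMb2 had means of 12.5, 9.15, 7.64, 16.6 and 12.8 CP10K in B cells, against 0.0665 to 0.169 in C1qa-high cells. H2-Ob had 5.31, 5.17, 3.88, 3.98 and 6.59, against 0 to 0.0966, and H2-Oa 1.1 to 4.18, against 0.00978 to 0.126. No library of B cells overlapped one of C1qa-high cells for these 3 genes. H2-DMa had 5.63 to 7.69 in B cells against 2.42 to 4.17, which did not overlap either. H2-DMb1 lay the other way, with 1.42 to 2.88 in B cells against 2.68 to 5.18, and these ranges overlapped. H2-DMb1 and H2-DMb2 are close copies, so the split between them is uncertain. Ctss, the protease cathepsin S that trims the invariant chain, was lower in B cells, at 4.56 to 7.57 CP10K against 62.8 to 68.3. Of the 11 list genes above the floor of 0.5 CP10K, 3 were at least 2-fold higher and 1 at least 2-fold lower in B cells than in the other Ptprc-positive cells of every library.

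**Figure D4:**
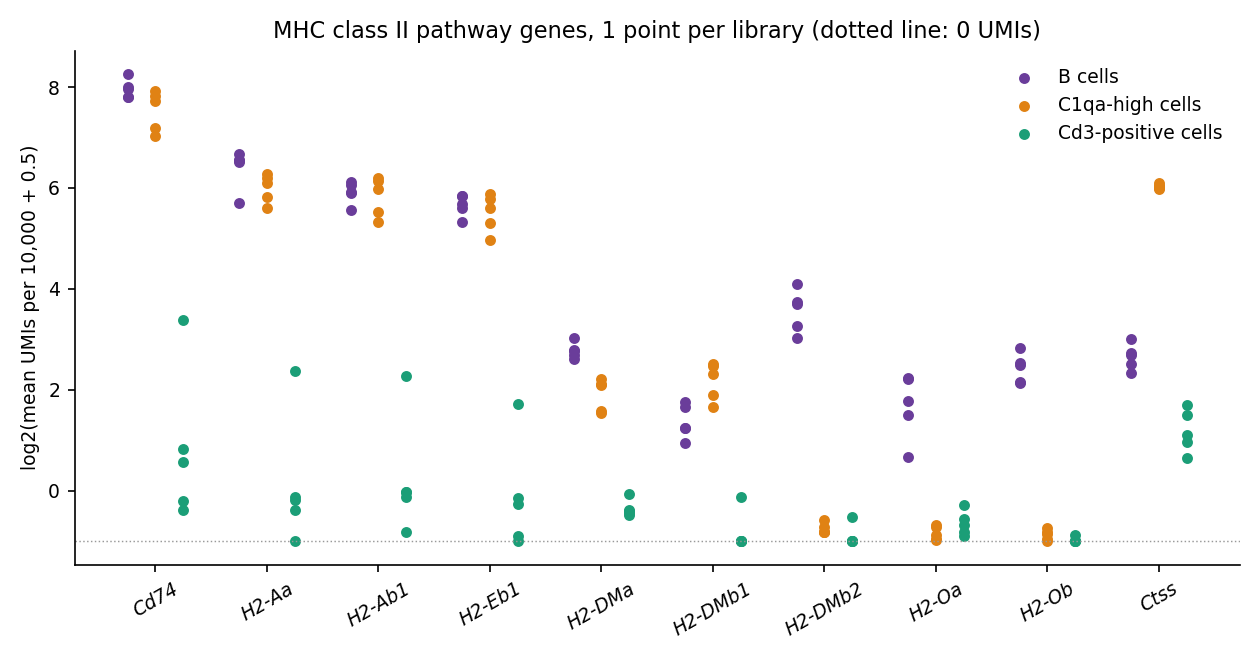
Mean level of 10 genes of the MHC class II pathway in B cells, C1qa-high cells and Cd3-positive cells, 1 point per library, as log2(mean CP10K + 0.5). B cells and C1qa-high cells overlap for Cd74, H2-Aa, H2-Ab1 and H2-Eb1, while H2-DMa, H2-DMb2, H2-Oa and H2-Ob are higher in B cells and Ctss is lower.

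The promoters of these genes are shown because the class II genes of B cells and macrophages are known to share a promoter module of S, X and Y boxes, read by the coactivator CIITA. The letters CTGATTGG of a Y box were searched on both strands of the RefSeq windows that run from 250 bases before to 50 bases after each gene start (GRCm38.p6). Of the 12 list genes, 9 had a window, and 4 of these held the letters on the strand of the gene. Among all 32851 windows, 1.99% held them on that strand and 4.10% on either. The stretch around the match, in capitals, reads 5′ to 3′ as follows:
H2-Aa (chr17:34287847-34287944, minus strand): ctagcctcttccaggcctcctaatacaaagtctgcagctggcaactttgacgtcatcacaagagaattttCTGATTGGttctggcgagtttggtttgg
H2-Eb1 (chr17:34305735-34305832, plus strand): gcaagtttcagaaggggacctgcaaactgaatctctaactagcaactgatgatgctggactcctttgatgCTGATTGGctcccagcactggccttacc
H2-Eb2 (chr17:34325502-34325599, plus strand): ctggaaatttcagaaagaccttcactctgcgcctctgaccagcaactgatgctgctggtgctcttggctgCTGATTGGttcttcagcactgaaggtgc
H2-Oa (chr17:34092263-34092360, plus strand): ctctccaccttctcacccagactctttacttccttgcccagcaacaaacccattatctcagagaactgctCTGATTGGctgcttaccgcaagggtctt

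The match began 51 bases before the start of H2-Aa, 62 before H2-Eb1, 103 before H2-Eb2 and 46 before H2-Oa. H2-Oa, which was higher in B cells than in C1qa-high cells, and H2-Aa, whose levels overlapped, both held it. H2-Ob, H2-DMa, H2-DMb1, H2-DMb2 and Ctss did not hold these letters in this window.

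Between the groups, 2 genes of 2194 tested passed the threshold in B cells, 1 higher and 1 lower. The test was limma on log2(mean CP10K + 0.5) with 2 against 3 libraries and a Benjamini-Hochberg adjusted p under 0.05. Genes were tested when their mean over all 5 libraries was at least 0.5 CP10K, so a gene could pass through 1 group alone. Medians of lists are over the genes that passed this filter. The 2 calls are 0.0912% of the genes tested, and 77 genes had an unadjusted p under 0.05. Libraries did not overlap for 10.5% of genes with higher values in the libraries labelled Oasl1-/-Apoe-/- and for 7.47% with lower values. In the same libraries, 11.8% and 9.57% of 2424 genes were called higher and lower in the other Ptprc-positive cells. Those means rested on 333 to 647 cells per library, against 9 to 30 B cells. A positive difference means a higher level in the libraries labelled Oasl1-/-Apoe-/-, and the median over all genes tested in B cells was 0.05. In means over cells, fewer cells with a transcript and less of it per cell cannot be told apart.

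Ifi27l2a, an interferon-induced gene at chr12:103442167-103443680, was higher in B cells of the libraries labelled Oasl1-/-Apoe-/-. Its means were 1.89 and 1.95 CP10K in the Apoe-/- libraries and 7.43, 10.9 and 16.5 in the others, which did not overlap. The log2 difference was 2.26 ± 0.39 (SE), with an adjusted p of 0.0135 by limma. In the other Ptprc-positive cells it had 2.96 and 2.87 CP10K against 15.5, 15.2 and 16.2, a log2 difference of 2.24 ± 0.05 (SE). The difference between these differences was 0.02 ± 0.51 (SE), with an adjusted p of 0.998 by limma. The call in B cells was kept without Apoe-/- replicate 1 and lost without each other library, at an adjusted p of 0.170 without Apoe-/- replicate 2 and of 0.224, 0.850 and 0.390 without the replicates 1, 2 and 3 labelled Oasl1-/-Apoe-/-. The log2 difference stayed between 1.98 and 2.53 with 1 library left out. It was also lost in the 34 B cells without a smooth muscle UMI, where the log2 difference was 1.16 and the adjusted p 0.895. Over all alternatives the adjusted p ran from 6.67e-06 to 0.895.

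The rest of the type I interferon list was thin in B cells. Of 30 genes, 10 passed the filter on low values, and 8 were at 0 in the B cells of all libraries, among them Ifit3, Rtp4, Usp18 and Oasl2. Of the 10, 1 was called, Ifi27l2a, beside 0.0912% of all genes tested. The median log2 difference of the 10 was 0.77, beside 0.05 over all genes. Of them, 3 were higher without overlap between the groups, beside 10.5% of all genes tested. The filter used the mean of all 5 libraries, so a list gene low in the Apoe-/- libraries could pass only through the others. Bst2 was such a gene, and this can raise both the median and the count without overlap. Bst2, the antiviral tether tetherin, had 0.253 and 0.403 CP10K against 1.68, 2.45 and 1.25, a log2 difference of 1.44 ± 0.59 (SE) with an adjusted p of 0.998 by limma. In the other Ptprc-positive cells, 18 of 19 list genes that passed the filter were called higher, with a median of 1.09. Of all genes tested in those cells, 11.8% were called higher.

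Ly6a and Ly6e, surface proteins that interferon raises, were higher in the B cells than in the other Ptprc-positive cells of both Apoe-/- libraries. Ly6a, also called Sca-1, had 3.10 and 6.35 CP10K in B cells against 4.85, 9.90 and 9.12, while the other Ptprc-positive cells had 0.689 and 0.556 against 6.38, 6.41 and 5.72. Ly6e had 17.3 and 16 against 19.6, 18 and 15.1 in B cells, and 4.93 and 3.99 against 9.78, 10.5 and 9.69 in the others. In B cells the groups overlapped for both genes, and in the other cells they did not. The group difference in B cells minus that in the other cells was -1.86 ± 0.46 (SE) for Ly6a and -1.02 ± 0.29 (SE) for Ly6e on the log2 scale, at unadjusted p of 0.00426 and 0.00874 and adjusted p of 0.998 by limma. Of 1572 genes with this test, 0 (0%) passed the threshold and 52 had an unadjusted p under 0.05.

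**Figure D5:**
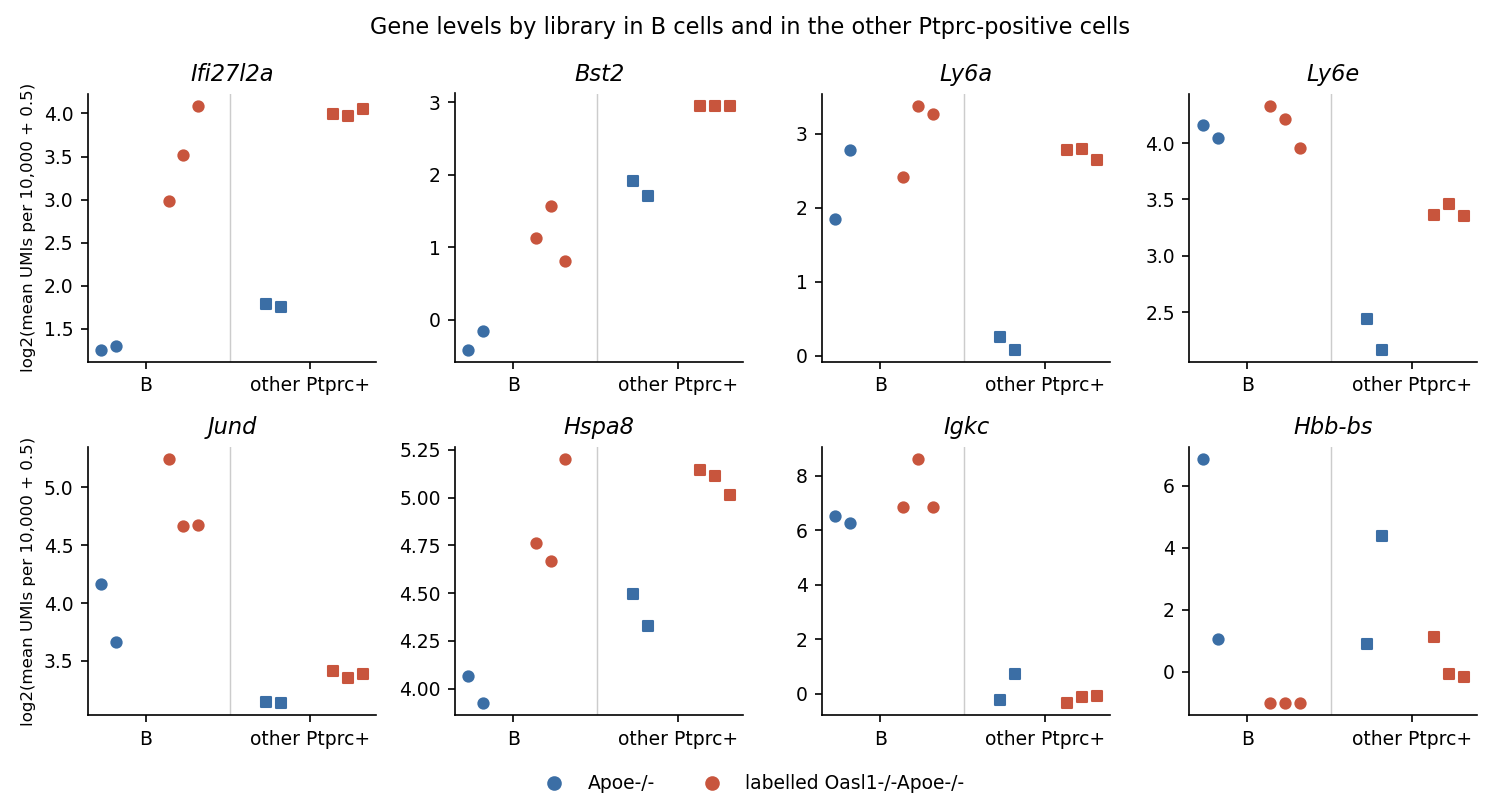
Mean level of 8 genes in B cells (circles) and in the other Ptprc-positive cells (squares), 1 point per library, as log2(mean CP10K + 0.5), with the y axis set per gene. Ifi27l2a is higher in the libraries labelled Oasl1-/-Apoe-/- in both populations, while Ly6a and Ly6e separate the groups in the other Ptprc-positive cells but overlap in B cells.

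Antibody genes did not pass the test. Igkc had 92.0 and 76.1 CP10K against 114, 391 and 115, a log2 difference of 1.04 ± 0.30 (SE) with an adjusted p of 0.454 by limma. The groups did not overlap, and the 391 belongs to the library with the Igha cell. Without that cell the log2 difference was 0.18, with an adjusted p of 0.998 by limma, and without its library 0.45. In B cells with all 3 gate genes the difference was -0.53. Iglc2 had 5.71 and 9.28 against 14.1, 24.1 and 17.9, a difference of 1.27 ± 0.32 (SE) with an adjusted p of 0.384, which became 0.62 without the Igha cell. Of the 8 chains tested, 2 were higher and 2 lower without overlap, beside 10.5% and 7.47% of all genes tested. The lower ones were Ighd and Iglc3. Fcer2a had 1.58 and 3.0 against 0.171, 0 and 0, where it was listed at 0 and B cells with it can be missed. Fcmr, the IgM Fc receptor, had 5.20 and 5.33 against 2.92, 0.276 and 3.12. Their log2 differences of -2.29 ± 0.69 (SE) and -1.44 ± 0.56 (SE) had adjusted p of 0.519 and 0.998 by limma. Without the replicate 2 labelled Oasl1-/-Apoe-/- the difference of Fcmr was -0.71.

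Immediate early and stress genes did not pass the test. Of the 17 genes, 16 were tested and 0 called, with a median log2 difference of 0.66, and 6 were higher and 1 lower without overlap, beside 10.5% and 7.47% of all genes tested. Jund, a subunit of the AP-1 factor, had 17.5 and 12.2 CP10K against 37.4, 24.9 and 25, at 0.95 ± 0.27 (SE) and an adjusted p of 0.454. Hspa8, a constitutive heat shock protein, had 16.3 and 14.7 against 26.7, 25 and 36.3, also with an adjusted p of 0.454. Hspa1a, an inducible one, was at 1.27 and 1.5 in the Apoe-/- libraries and listed at 0 in the B cells of the others. Cd83, a surface protein of activated B cells, had 15.2 and 8.02 against 16.8, 23.7 and 21.2, with a difference of 0.85 ± 0.30 (SE) and an adjusted p of 0.998. Median UMIs per B cell were also higher in the libraries labelled Oasl1-/-Apoe-/- (1948 against 1406), and the part of depth in these values was not tested.

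The other lists of B cell genes held no call either. For the antigen receptor and coreceptors (16 genes tested), the transcription factors (14), the homing genes (11), the survival and costimulation genes (10), the follicular genes (7) and the plasma cell genes (4), 0 were called, and the median log2 differences were -0.19, -0.14, -0.05, 0.27, 0.13 and 0.79. The plasma cell genes include the transcripts of the Igha cell. The marginal zone, B-1 and transitional lists had 1, 3 and 1 genes tested and 0 called, and 0 genes of the germinal centre and age-associated lists passed the filter.

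MHC genes did not pass the threshold. Of 11 class II genes tested, 0 were called, with a median log2 difference of -0.14. Cd74 alone was higher without overlap, beside 10.5% of all genes tested. It had 223 and 223 CP10K against 248, 254 and 305. Its difference was 0.27 ± 0.13 (SE), with an adjusted p of 0.998 by limma. Among the other Ptprc-positive cells, 5 of 7 class II genes were called higher, beside 11.8% of all genes tested there. Their median log2 difference was 0.21, beside -0.004 over all genes tested in those cells. Of 11 class I genes, 0 were called in B cells, with a median of 0.29 and 4 higher without overlap, beside 10.5% of all genes tested. B2m, the shared light chain of class I molecules, had 35.4 and 38.4 CP10K in B cells against 47.9, 48.9 and 41.9. In the other Ptprc-positive cells 11 of 12 class I genes were called higher, beside 11.8% of all genes tested there.

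The other gene past the threshold, Hbb-bs, a beta globin of red blood cells at chr7:103826534-103828096, is not a gene B cells are known for. It had 116 and 1.57 CP10K in the Apoe-/- libraries, while the B cells of the others had none. The fitted log2 difference of -4.96 ± 0.92 (SE), with an adjusted p of 0.0155 by limma, depends on the 0.5 CP10K added and is no bound. Haemoglobin UMIs were found in 13, 9, 0, 0 and 1 B cells of the 5 libraries. A single B cell of Apoe-/- replicate 1 reached 6269 CP10K of haemoglobin, and it was the only one at or above 100. The summed erythroid list was 222 and 2.29 CP10K in the Apoe-/- libraries, and 0, 0 and 1.06 in the others. The call was lost with each library labelled Oasl1-/-Apoe-/- left out, and Hbb-bs fell below the filter without Apoe-/- replicate 1. Over all alternatives its adjusted p ran from 1.07e-19 to 0.997. Among the 66 B cells without haemoglobin UMIs, 6 genes were called, Ifi27l2a, Igkc, Iglc1, Jund and Hspa8 higher and Tpt1 lower. This set held 16, 21, 10, 11 and 8 cells of the 5 libraries, so most cells left out were Apoe-/-. It kept the Igha cell with its 4024 kappa UMIs. With only the Igha cell left out, the log2 difference of Igkc was 0.18. What these calls owe to the cells left out or kept was not tested.

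Transcripts of smooth muscle, the main cell of the arch, were also in the B cells. At least 1 UMI of Acta2, Tagln, Myl9 or Tpm2 was in 22, 20, 4, 4 and 5 B cells of the 5 libraries, and 3 cells were at or above 100 CP10K. These 3 cells had 795 and 751 CP10K in Apoe-/- replicate 1 and 429 in the replicate 1 labelled Oasl1-/-Apoe-/-. The summed list of 8 smooth muscle genes was 66.2, 6.56, 49.2, 2.16 and 3.93 CP10K, with Des alone at 0 throughout. In these means, which include the 3 cells, replicate 1 of each group stood above the other libraries. Medians per B cell of the 4 genes were 7.79, 5.09, 0, 0 and 5.55 CP10K. Acta2 was in 36.0% of B cells, 31.7% of Cd3-positive cells and 44.9% of C1qa-high cells. Of the 6 genes tested, 0 were called in B cells. In the 34 B cells without these UMIs, 0 genes were called between the groups by limma and 108 had an unadjusted p under 0.05. The part of these transcripts in the other results was not tested.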

How the data were processed

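Per the labels and the study's methods, the authors mapped reads to mm10 with Cell Ranger 3.1.0, kept cells by gene number and mitochondrial share with Seurat 4.0.3 and removed doublets; none were called again. They deposited values as a natural log, ln(1 + UMIs per 10000 UMIs of a cell), made by the authors with Seurat. Undone, they gave whole UMIs (within 0.01) for 100% of values. The table holds 16498 genes. Genes with a UMI in exactly 2 cells of a library were far fewer than those in exactly 3 (115 against 409 in Apoe-/- replicate 1), so genes in fewer than 3 cells were taken as set to 0 before deposit, and a gene at 0 is only called listed at 0.

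The library was the replicate. For B cells and for the other Ptprc-positive cells, log2(mean CP10K + 0.5) was tested per gene with limma 3.58.1 in R 4.3.3 (trend on) for genes with a mean of at least 0.5 CP10K, with Benjamini-Hochberg adjustment over all genes tested at 0.05. Their difference within each library was tested the same way. Shares were compared by exact two-sided permutation over the 5 libraries. Offsets, filters, gates, scalings, limma-voom and left-out libraries were the alternatives. Names and coordinates came from GENCODE (GRCm38), and 98.9% of symbols matched. The text names gate genes, members of 24 lists, genes past the threshold without overlap and the 25 highest and 10 lowest ratios; Tpt1, Ly6d, Fcmr, Iglc1 and 1 ribosomal list were named after their values were seen, and so were the populations compared for MHC class II. The members and lists were chosen with earlier results of these data known. Of the list genes, 7 were not in the table. Values of some list genes are not reported here.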

Additional observations from a re-analysis of the deposited data

How the results depend on the processing

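The lower B cell share kept its direction under every alternative run, with no overlap of libraries. The difference of -0.396 percentage points of all cells became -0.164 with all 3 gate genes required and -0.309 with each cell thinned to 1000 UMIs, and lay between -0.415 and -0.383 with 1 library left out. The difference of -6.41 points of Ptprc-positive or B cells became -2.74 with all 3 genes, -7.18 with at least 2 of 6 B genes (chosen after seeing the data), -13.0 with thinning and -2.94 with Ptprc, Cd52 or Coro1a as the denominator, and lay between -6.65 and -6.18 with 1 library left out. Genes called in B cells, 2 as reported, numbered 1 with an offset of 0.05, with a filter of 1 CP10K, with limma-voom on summed UMIs and with 2 of 6 genes. They numbered 0 with no filter, pooled CP10K, all 3 gate genes, the mean of the log values, and without B cells with a smooth muscle UMI. They numbered 6 without ribosomal, mitochondrial and haemoglobin genes in the scale, and 6 without cells with haemoglobin UMIs. The replicate block gave 18 calls, and 0 to 4 were called with 1 library left out. Deviations of same-numbered libraries had correlations of 0.068 and 0.027. Counting noise in 9 to 30 shallow B cells per library can hide a shared deviation, so these values cannot decide whether the numbers are pairs. The reported test was run without the block. The replicate block gave 234 calls in the other Ptprc-positive cells, 518 as reported, and 292 to 633 with 1 library left out. The test between populations called 0 to 1 genes with 1 library left out, the 1 being Hbb-bs without Apoe-/- replicate 2. Igkc reversed to -0.53 with all 3 gate genes. The adjusted p of Ifi27l2a ran from 6.67e-06 to 0.895 and its log2 difference from 1.16 to 2.61. The cause of these changes was not tested. With 9 to 30 shallow B cells per library, genes under 0.5 CP10K could not be compared, and the exact tests could not pass 0.05.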

Other observations

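Ribosomal protein genes were grouped after their values were seen. Of 81 tested, 63 had a lower mean in the B cells of the libraries labelled Oasl1-/-Apoe-/-, as had 1021 of the 2194 genes tested in all, and 20 were lower and 3 higher without overlap, beside 7.47% and 10.5% of all genes tested. By limma 0 were called; the median log2 difference was -0.17, beside 0.05 over all genes tested. Tpt1, a translation-associated gene, had 64.1 and 69.9 CP10K in B cells against 39.5, 38.8 and 42.3, a difference of -0.73 ± 0.20 (SE) with an adjusted p of 0.420 by limma. In the other Ptprc-positive cells its difference was -0.85, with an adjusted p of 9.36e-06 by limma.

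Maff, a small Maf transcription factor, had 0.256 and 0.223 CP10K in B cells against 3.58, 1.75 and 2.36, a log2 difference of 2.01 ± 0.57 (SE) with an adjusted p of 0.454 by limma. Tcp11l2 had 3.42 and 3.30 against 0.448, 0 and 0.813, a log2 difference of -2.18 ± 0.60 (SE) with the same adjusted p. Both were chosen after their values were seen.

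Cd24a, a surface protein of B cells, had means of 4.02, 5.99, 8.39, 7.35 and 5.73 CP10K in B cells. Its mean was 0.495 in all other Ptprc-positive cells, 0.166 in C1qa-high cells and 0.182 in Cd3-positive cells. Scd1, a fatty acid desaturase, was among the 25 genes with the highest ratios, with 2.97, 2.61, 2.93, 5.35 and 3.71 CP10K in B cells. Its log2 ratio to the other Ptprc-positive cells was 2.06 to 3.20 over the libraries. Nr4a1, an immediate early gene of antigen receptor signals, had 11.8, 10.3, 9.12, 23.8 and 18.5 CP10K in B cells, at least 2-fold above the other Ptprc-positive cells in every library. The smooth muscle cells with Acta2 and Myh11 UMIs had 8.38 CP10K of it.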
